A study of Mus musculus with 7 samples.

Results

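The transcripts described here are 29 genes of cholesterol synthesis, uptake, efflux and storage, measured in mouse mammary tumours and control mammary glands. They were taken by gene symbol from a list of cholesterol genes, and all 29 were found among the 50600 genes of the deposited tables. By role, 7 belong to the mevalonate arm, 11 to the sterol arm, 4 to the control of the factor SREBP2, 2 to uptake and lysosomal export, 4 to efflux and its control, and 1 to storage. Across 7 libraries, 6 of the 29 genes passed as lower in tumours than in glands and none as higher, by edgeR's quasi-likelihood test. Of all 14149 genes tested, 4.57% passed as lower and 3.9% as higher. The largest fall among the 6 was that of Insig1, the sterol-dependent brake on SREBP2, which fell 11.5-fold.

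Bulk RNA came from 3 control mammary glands and from 4 mammary tumours of ECD transgenic mice. ECD (ecdysoneless) is a protein with roles in the cell cycle and in RNA splicing. By histology, tumours 1a and 1b are adenosquamous, tumour 3 is a spindle cell carcinoma and tumour 4 is papillary, and a central piece of each was used. Replicates are therefore 3 glands, 2 adenosquamous tumours and 1 tumour of each other type. The sources used here do not give the promoter or species of the transgene, nor the genotype of the controls, the strain, the age or any treatment of the mice. The labels do not say whether the controls were littermates, or whether tumours 1a and 1b grew in 1 animal. Mouse Ecd was at 12.7 to 19.1 CPM in the glands and 15.9 to 21.8 CPM in the tumours (adjusted p = 0.463 by edgeR), and a transgene of another species would not be read by this row. CPM is the estimated count scaled to a common library total, as counts per 1000000.

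Cells make cholesterol from acetyl-CoA, first through mevalonate to farnesyl diphosphate and then through squalene and lanosterol to the sterol ring. SREBP2, encoded by Srebf2, switches on the genes of both arms when sterol in the endoplasmic reticulum is low. Its escort Scap carries it to the Golgi for cleavage, and the Insig proteins hold that complex back when sterol is plentiful. Insig1 is itself a target of SREBP factors. In the other direction, oxysterols activate LXR, encoded by Nr1h3 and Nr1h2, which raises the exporters Abca1 and Abcg1 and the carrier Apoe. The mammary gland lies in a pad of fat cells, which store cholesterol and carry out much lipid synthesis, and its epithelium makes milk lipid.

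SREBP factors bind a short sterol regulatory element, usually near sites of NF-Y and Sp1. Promoter windows of 300 bases, from 250 before to 50 after the annotated start, were taken from RefSeq on GRCm38.p6 and matched 23 of the 29 genes. Abcg1, Fdft1, Fdps, Npc1, Scarb1 and Sqle had no window. On either strand, the letters TCACNCCAC stood in the window of 1 of the 23 genes, Hmgcs1, against 1.44% of all genes in the table. The shorter CACNCCAC, which lies inside it, stood in 3, Acat2, Hmgcs1 and Insig1, against 7.12% of genes. The NF-Y letters CCAAT were present for 18 of the 23 (41.06% of all genes) and the Sp1 letters GGGCGG for 20 (38.2%). Such matches are descriptions of the letters and not evidence of binding.

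The windows of those 3 genes are shown because, of the 23 searched, they alone held these letters. As described below, Hmgcs1 and Insig1 were below every gland in every tumour, and Acat2 in all but the papillary tumour, without passing over the 4 tumours. They span chr17:12960676-12960975 on the minus strand for Acat2, chr13:119690101-119690400 on the plus strand for Hmgcs1 and chr5:28071162-28071461 on the plus strand for Insig1. Capitals mark CACNCCAC and CCAAT on either strand, so that CCAAT read on the other strand appears as ATTGG.
Acat2: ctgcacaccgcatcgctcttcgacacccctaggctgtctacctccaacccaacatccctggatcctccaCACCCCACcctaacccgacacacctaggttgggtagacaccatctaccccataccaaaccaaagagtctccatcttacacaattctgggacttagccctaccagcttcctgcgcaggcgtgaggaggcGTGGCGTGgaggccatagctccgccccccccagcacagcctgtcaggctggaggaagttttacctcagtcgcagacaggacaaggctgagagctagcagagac
Hmgcs1: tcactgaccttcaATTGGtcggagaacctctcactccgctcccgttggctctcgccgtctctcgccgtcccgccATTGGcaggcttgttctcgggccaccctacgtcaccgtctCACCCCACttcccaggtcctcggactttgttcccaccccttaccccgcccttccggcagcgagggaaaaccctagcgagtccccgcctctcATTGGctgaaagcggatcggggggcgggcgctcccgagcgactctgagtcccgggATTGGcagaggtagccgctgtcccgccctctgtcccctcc
Insig1: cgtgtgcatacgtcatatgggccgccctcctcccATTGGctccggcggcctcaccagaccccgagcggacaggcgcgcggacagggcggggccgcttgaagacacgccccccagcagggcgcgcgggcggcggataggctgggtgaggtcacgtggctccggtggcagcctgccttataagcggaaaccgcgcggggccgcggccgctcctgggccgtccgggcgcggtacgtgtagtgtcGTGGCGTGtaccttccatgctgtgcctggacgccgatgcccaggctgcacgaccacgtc
Counted from the start site, CACNCCAC begins at -181 on the gene's strand and at -53 on the other strand in Acat2, at -136 on the gene's strand in Hmgcs1 and at -9 on the other strand in Insig1. Hmgcs1 has 4 CCAAT boxes in its window, Insig1 has 1 and Acat2 has none.

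Total counts were 5148438 to 35631279 per gland and 5420562 to 28638143 per tumour. Transcripts of the mitochondrial genome made up 48.36% to 64.83% of counts in glands and 18.34% to 32.61% in tumours. Markers of other cells, given as sums over each list with the genes at 0 named, differed between the groups, and the sums of 4 of the 6 lists did not overlap between glands and tumours. Fat cell markers summed to 3650 to 7810 CPM in the glands and 30.1 to 186.7 CPM in the tumours. All 12 were lower in every tumour than in any gland, and 11 of the 12 fell in the test. Their defining genes Adipoq, Plin1 and Lep had at most 9.53 CPM in any tumour, with Adipoq at 0 in the spindle cell tumour and Lep at 0 in tumour 1b. Cidec was also at 0 in both of those tumours, Adrb3 in tumour 1b, and Cfd, Retn and Acvr1c in the spindle cell tumour. Fat cell transcripts were thus nearly gone from the tumours. Skeletal muscle markers summed to 13690 and 26980 CPM in glands 1 and 3, 21.7 CPM in gland 2 and 1.39 to 212.1 CPM in the tumours. None of those 8 passed, and Tnnt3 was at 0 in the spindle cell tumour. Muscle transcripts were thus abundant in glands 1 and 3 only. Epithelial markers summed to 201.9 to 330.0 CPM in glands and 1207 to 1782 CPM in tumours, where 2 of 8 rose, with Cldn4 at 0 in gland 1. Cycling cell markers summed to 18.0 to 43.8 CPM and 430.0 to 690.8 CPM, and 8 of 8 rose, with Ccnb1, Aurkb and Bub1 at 0 in gland 1. Both sums were higher in every tumour than in any gland. Of the single genes, 2 of 8 epithelial markers and 8 of 8 cycling cell markers were above every gland in every tumour. Macrophage markers summed to 185.7 to 332.2 CPM in glands and 154.7 to 2481 CPM in tumours. Of those 12, 1 fell and none rose, and Fcgr1 was at 0 in gland 1. Endothelial markers summed to 234.5 to 368.1 CPM in glands and 40.2 to 233.2 CPM in tumours, and none of 6 passed. In bulk RNA, fewer cells of a type cannot be told apart from less of a transcript per cell, and the part of these differences in the results that follow was not tested.

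**Figure D1:**
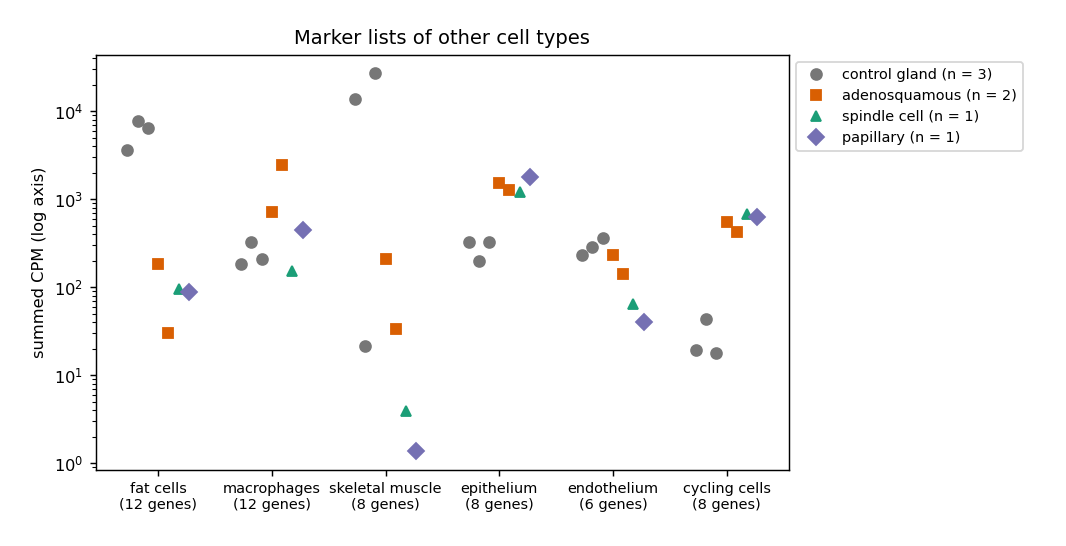
Summed CPM (log axis) of 6 marker lists of other cell types in each library, with 1 point per library and the number of genes under each list. Fat cell markers lie at 3650 to 7810 CPM in the 3 glands and at most 186.7 CPM in the 4 tumours, while skeletal muscle markers separate gland 2, at 21.7 CPM, from glands 1 and 3.

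Tumours were compared with glands to ask which of the cholesterol genes differ in the tumours. All 29 genes passed the filter on low counts. Of these, 6 fell and 0 rose at an adjusted p under 0.05 (edgeR, Benjamini-Hochberg over all 14149 genes tested), and 23 did not pass. Over all genes tested, 4.57% were called lower and 3.9% higher. At an unadjusted p under 0.05 there were 8 lower and 3 higher cholesterol genes, and DESeq2 called the same numbers, 8 and 3. Over all genes 28.9% were at such a p and 24.1% passed in DESeq2, in either direction. The median log2 fold change was -0.15 over the 29 genes and 0.12 over all genes. Every tumour was below every gland for 8 of the 29 genes, against 13.2% of all genes tested, and above every gland for 2, against 16.3%. The remaining 19 overlapped. The count of falls was 5, 3 and 1 without gland 1, 2 and 3. Of all genes, 2.38%, 3.85% and 0.654% then passed, in either direction, against 8.47% with every library kept. The count of falls was 3 without tumour 1a, 3 without 1b, 4 without the spindle cell tumour and 7 without the papillary tumour. The shares of all genes passing were 5.9%, 2.7%, 3.84% and 9.88%, in the same order. With gland 2, the gland nearly free of muscle transcripts, as the only control, none of the 16520 genes then tested passed, and 8 cholesterol genes were at an unadjusted p under 0.05.

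**Figure D2:**
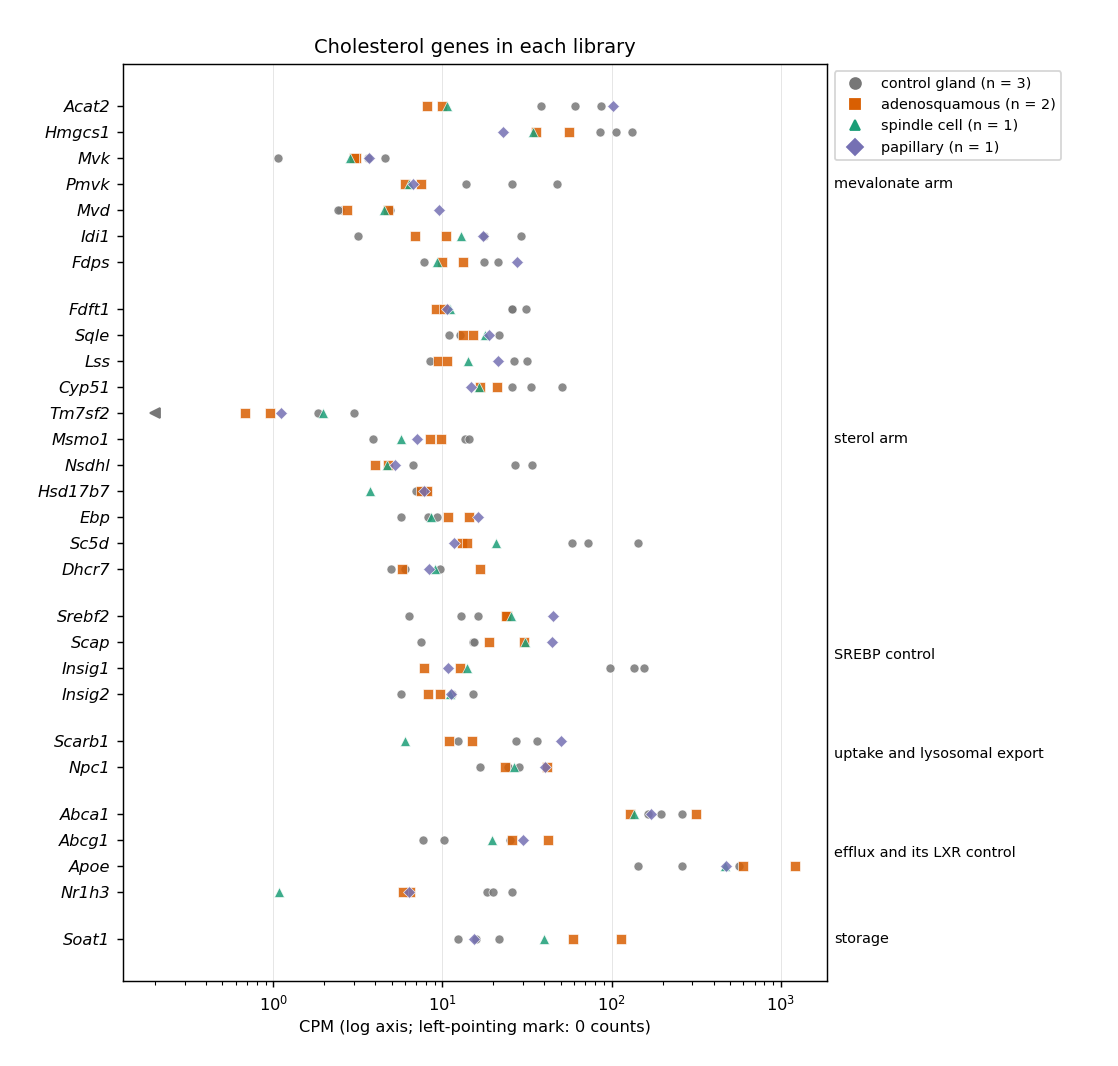
CPM (log axis) of each of the 29 genes in each library, grouped by role, with 1 mark per library and an arrowhead for a count of 0. Insig1, Sc5d, Fdft1, Hmgcs1, Pmvk, Nsdhl, Cyp51 and Nr1h3 have all tumour marks left of all gland marks, and Srebf2 and Scap have all tumour marks to the right.

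The control genes of SREBP2 held both the largest fall and the only members above every gland. Insig1, whose protein retains Scap and SREBP2 in the endoplasmic reticulum, was at 97.97, 135.2 and 155.9 CPM in glands 1, 2 and 3. It was at 12.7, 7.76, 13.99 and 10.8 CPM in tumours 1a, 1b, 3 and 4. Even the lowest gland lay far above the highest tumour, and the 4 tumours lay close together whatever their type. The mean was 129.7 ± 29.3 CPM (SD, n = 3) in glands and 11.3 ± 2.71 CPM (SD, n = 4) in tumours, a log2 fold change of -3.52 (SE 0.30, adjusted p = 0.00675 by edgeR). Its log2 fold change lay between -3.67 and -3.34 over 15 other settings. It passed in 14 of them, and with gland 2 as the only control it was -3.65 with an adjusted p = 0.173.

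Insig2, the second Insig protein, which is not induced by SREBP2 in the same way, was at 5.66, 11.3 and 15.2 CPM in the glands and 8.17, 9.66, 11.04 and 11.3 CPM in tumours 1a, 1b, 3 and 4. All 4 tumours lay within the range of the glands (log2 fold change -0.11, SE 0.37, adjusted p = 0.868 by edgeR). Per kilobase of exon, the level of Insig1 was 19.4, 13.4 and 11.5 times that of Insig2 in glands 1, 2 and 3. In tumours 1a, 1b, 3 and 4 it was 1.74, 0.901, 1.42 and 1.07 times that of Insig2. The excess of Insig1 transcript over Insig2 seen in every gland was therefore at most 1.74-fold in any tumour.

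Srebf2 itself was at 6.37, 16.2 and 12.9 CPM in the glands and at 23.9, 23.8, 25.4 and 45.1 CPM in tumours 1a, 1b, 3 and 4. Scap was at 7.43, 15.1 and 15.4 CPM in the glands and at 18.9, 30.3, 30.8 and 44.5 CPM in the tumours. Both were above every gland in every tumour, and highest in the papillary tumour. Neither passed: the log2 fold change was 1.305 for Srebf2 (SE 0.41, adjusted p = 0.0880 by edgeR) and 1.29 for Scap (SE 0.39, adjusted p = 0.0836). Both passed in DESeq2 alone among the other settings (adjusted p = 0.0169 and 0.0150).

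**Figure D3:**
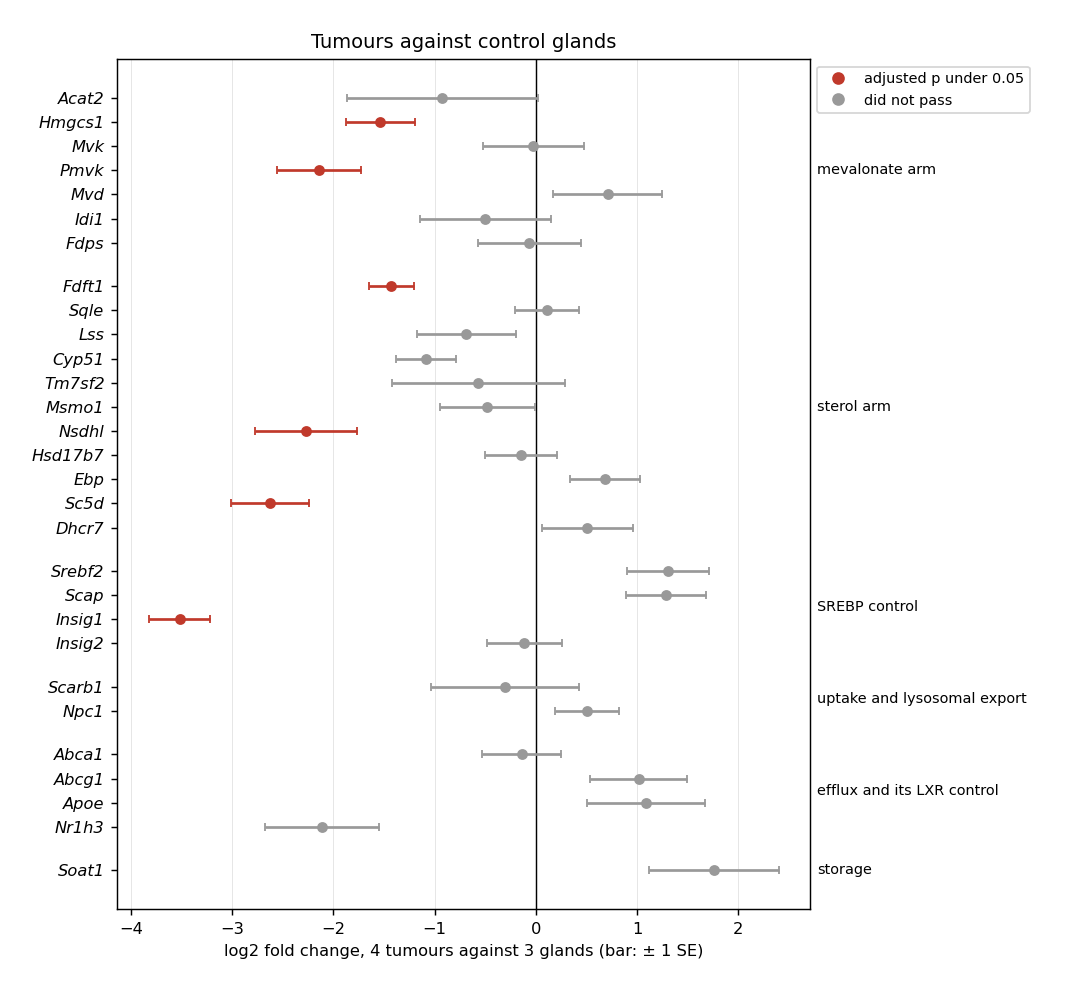
Log2 fold change of each of the 29 genes, 4 tumours against 3 glands, with bars of 1 SE either side and red for an adjusted p under 0.05 by edgeR. The 6 red points, from Insig1 at -3.52 to Fdft1 at -1.43, all lie below 0.

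In the mevalonate arm, 2 of 7 genes fell, Hmgcs1 and Pmvk, and 5 did not pass, against 4.57% of all genes called lower. Hmgcs1, the synthase that makes HMG-CoA, was at 106.1, 132.0 and 85.5 CPM in the glands and at 35.7, 56.2, 34.4 and 22.7 CPM in tumours 1a, 1b, 3 and 4. Its groups did not overlap, and the papillary tumour was lowest (log2 fold change -1.54, SE 0.34, adjusted p = 0.0378 by edgeR). Pmvk, phosphomevalonate kinase, was at 13.8, 47.8 and 25.7 CPM in the glands and at 6.04, 7.48, 6.31 and 6.69 CPM in the tumours. The tumours lay close together, while the glands spread widely (log2 fold change -2.14, SE 0.41, adjusted p = 0.0259). Neither call held each time a library was left out. That of Hmgcs1 was lost without gland 1, 2 or 3, tumour 1a or the spindle cell tumour (adjusted p = 0.0776 to 0.110). That of Pmvk was lost without gland 2 or 3, tumour 1a or 1b, or the spindle cell tumour (adjusted p = 0.0582 to 0.0872).

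Acat2, the cytosolic thiolase that joins 2 acetyl-CoA molecules at the start of the arm, was at 38.2, 86.9 and 60.8 CPM in the glands. It was at 8.09, 9.93 and 10.6 CPM in tumours 1a, 1b and 3 but at 102.0 CPM in the papillary tumour. Those 3 tumours were below every gland and the papillary tumour above every gland, and the fold change over all 4 tumours did not pass (log2 -0.92, SE 0.95, adjusted p = 0.552). Without the papillary tumour it was -2.76, with an adjusted p = 0.0129 by edgeR.

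The other 4 genes of the arm overlapped between the groups. Idi1, the isopentenyl diphosphate isomerase, was at 3.18, 28.97 and 17.7 CPM in the glands and 6.90 to 17.4 CPM in the tumours. Fdps, farnesyl diphosphate synthase, was at 7.78 to 21.2 CPM and 9.26 to 27.5 CPM. Mvk, mevalonate kinase, was at 1.06 to 4.57 CPM and 2.86 to 3.69 CPM. Mvd, the decarboxylase, was at 2.42 to 4.89 CPM in the glands and 2.72 to 9.55 CPM in the tumours, with the papillary tumour alone above the glands. Their log2 fold changes were between -0.50 and 0.71. Fdps, like Acat2 and Mvd, was above the range of the glands in the papillary tumour alone.

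In the sterol arm, 3 of 11 genes fell, Sc5d, Fdft1 and Nsdhl, and 8 did not pass, against 4.57% of all genes called lower. Sc5d, a desaturase of the last steps, was at 58.0, 143.8 and 72.8 CPM in the glands and at 13.1, 13.9, 20.7 and 11.7 CPM in tumours 1a, 1b, 3 and 4. The groups were far apart (log2 fold change -2.63, SE 0.39, adjusted p = 0.0123 by edgeR), and the call was lost without gland 3 (adjusted p = 0.0564) and with gland 2 as the only control (log2 -3.35, adjusted p = 0.173). Fdft1, the squalene synthase that commits farnesyl diphosphate to sterols, was at 25.8, 25.8 and 31.3 CPM in the glands and at 9.19, 10.2, 11.04 and 10.7 CPM in the tumours. Both groups were tight (log2 fold change -1.43, SE 0.22, adjusted p = 0.0143). The call was lost without gland 3 (adjusted p = 0.0750) or tumour 1b (adjusted p = 0.0530). Its exons overlap those of Ctsb on the other strand by 774 bases, and without strand the reads there cannot be assigned with certainty.

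Nsdhl, a dehydrogenase that takes part in removing methyl groups from the ring, was at 6.72, 33.6 and 26.7 CPM in the glands and at 4.001, 4.76, 4.73 and 5.23 CPM in the tumours. Gland 1 lay close to the tumours, and the groups still did not overlap (log2 fold change -2.27, SE 0.51, adjusted p = 0.0377 by edgeR). The call was lost without gland 2 or 3, tumour 1a or 1b, or the spindle cell tumour (adjusted p = 0.0789 to 0.132). Cyp51, the lanosterol demethylase, was at 33.3, 50.8 and 25.7 CPM in the glands and at 21.0, 16.7, 16.6 and 14.8 CPM in the tumours. It was below every gland in every tumour but did not pass (log2 -1.08, SE 0.30, adjusted p = 0.0637). DESeq2 called it (adjusted p = 0.00659). Its exons overlap those of Akap9 on the other strand by 166 bases.

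The remaining 7 genes of the sterol arm overlapped between the groups, with log2 fold changes between -0.69 and 0.68. Sqle, squalene epoxidase and a known rate-limiting step, was at 12.7, 21.5 and 10.9 CPM in the glands and at 13.3, 15.1, 17.8 and 18.9 CPM in tumours 1a, 1b, 3 and 4. All 4 tumours lay inside the range of the glands (log2 fold change 0.11, SE 0.32, adjusted p = 0.849 by edgeR). Lss, which closes the ring to lanosterol, was at 8.49 to 31.7 CPM in glands and 9.36 to 21.3 CPM in tumours, and Msmo1, a methylsterol oxidase, at 3.89 to 14.4 CPM and 5.72 to 9.80 CPM. Dhcr7, the reductase of the last step, was at 4.95 to 9.68 CPM and 5.79 to 16.6 CPM, with tumour 1b highest. Ebp, a sterol isomerase, was at 5.66 to 9.24 CPM in the glands and above that range in tumours 1a, 1b and 4, at 14.3, 10.8 and 16.2 CPM. Hsd17b7, a ketosteroid reductase, was at 7.02 to 8.14 CPM in 6 libraries and at 3.74 CPM in the spindle cell tumour. Tm7sf2, a sterol reductase, had no count in gland 1, which allows up to 1.06 CPM there, and at most 2.99 CPM elsewhere. Its exons overlap those of Vps51 on the same strand.

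**Figure D4:**
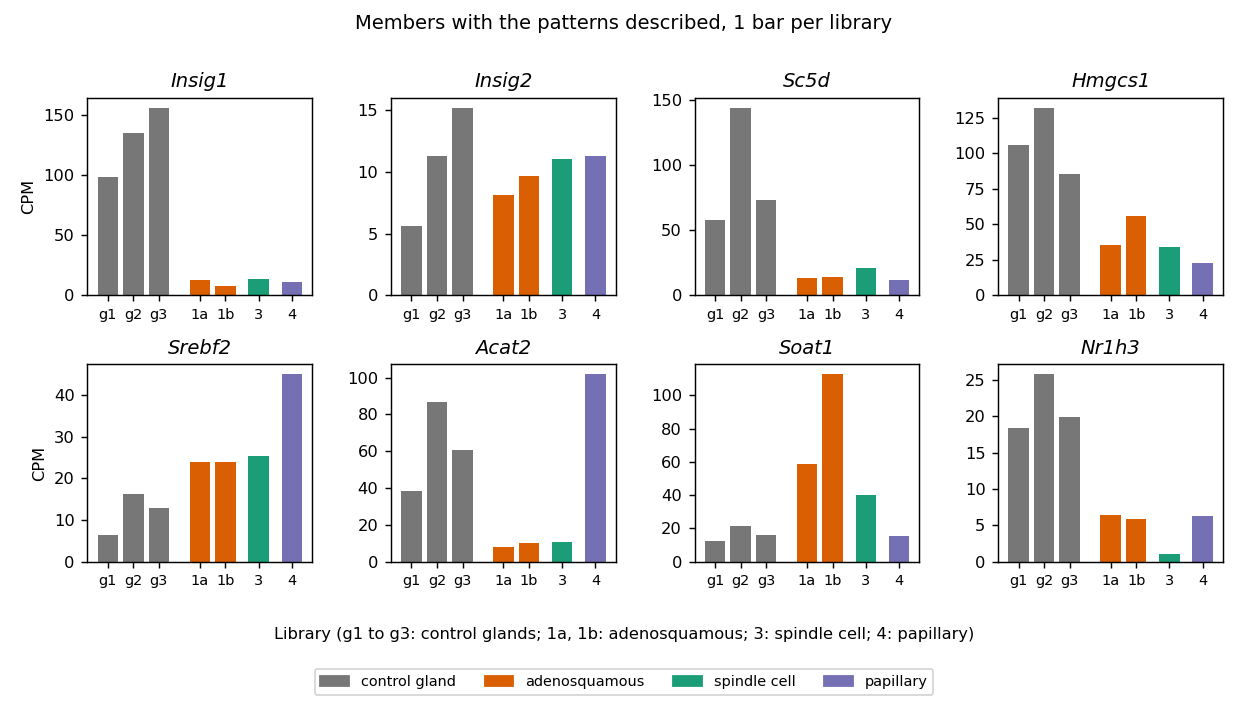
CPM of 8 of the genes with 1 bar per library, each panel on its own axis from 0. Insig1 falls to at most 13.99 CPM in the tumours while Insig2 stays between 5.66 and 15.2 CPM in all 7 libraries, Acat2 is high in the papillary tumour alone among tumours, and Soat1 is highest in the adenosquamous tumours.

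Neither gene of uptake and lysosomal export passed, against 8.47% of all genes in either direction. Scarb1, the receptor for cholesterol of high-density lipoprotein, was at 12.4, 27.3 and 36.1 CPM in the glands and at 14.9, 10.9, 6.01 and 50.1 CPM in tumours 1a, 1b, 3 and 4. The spindle cell tumour was the lowest and the papillary tumour the highest of the 7 libraries. Npc1, which moves cholesterol out of lysosomes, was at 16.6 to 28.4 CPM in glands and 23.5 to 41.5 CPM in tumours. Its exons overlap those of Rmc1 on the other strand.

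Among the genes of efflux, none of 4 passed (8.47% of all genes in either direction), although Nr1h3 was lower in every tumour. Nr1h3, which encodes LXR alpha, was at 18.4, 25.9 and 19.9 CPM in the glands and at 6.47, 5.85, 1.08 and 6.31 CPM in tumours 1a, 1b, 3 and 4. The glands and tumours did not overlap, and the spindle cell tumour stood apart at 11 counts, with a 95% interval of 0.541 to 1.94 CPM that covers counting error only. The log2 fold change was -2.11 (SE 0.56, adjusted p = 0.0600 by edgeR). It passed without the spindle cell tumour (log2 -1.75, adjusted p = 0.0380), with a minimum count of 50 (adjusted p = 0.0451), in limma-voom (adjusted p = 0.0351) and in DESeq2 (adjusted p = 0.00328).

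Among the LXR targets, none was below every gland in every tumour. Abca1, which loads cholesterol onto lipid-poor apolipoprotein, was at 164.8, 196.8 and 259.9 CPM in the glands and at 129.0, 317.0, 136.4 and 170.0 CPM in tumours 1a, 1b, 3 and 4 (log2 fold change -0.14, SE 0.39, adjusted p = 0.842 by edgeR). Abcg1, which exports cholesterol to high-density lipoprotein, was at 10.3, 25.2 and 7.63 CPM in the glands and at 25.7, 42.0, 19.7 and 29.9 CPM in the tumours (log2 1.02, SE 0.48, adjusted p = 0.205). Apoe, the apolipoprotein that fat cells and macrophages also secrete, was at 143.6, 566.0 and 261.3 CPM in the glands and at 593.5, 1217, 470.2 and 477.1 CPM in the tumours (log2 1.09, SE 0.58, adjusted p = 0.255). All 3 overlapped between the groups, and each was highest in tumour 1b, where the macrophage markers also summed highest, at 2481 CPM. Lyz2 alone made up 1793 CPM of that sum. Not every marker of the list was highest there, as Csf1r was at 85.2 CPM in tumour 1b and 93.8 CPM in tumour 1a. Whether macrophage content has a part in the levels of these 3 genes was not tested.

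Soat1, which esterifies cholesterol for storage, was at 12.4, 21.7 and 15.8 CPM in the glands and at 58.9, 112.9, 39.8 and 15.3 CPM in tumours 1a, 1b, 3 and 4. The 3 tumours other than the papillary one were above every gland, with the adenosquamous pair highest. Over all 4 tumours it did not pass (log2 1.76, SE 0.64, adjusted p = 0.122 by edgeR). Without the papillary tumour it did (log2 2.02, adjusted p = 0.0370), and in DESeq2 with all 4 (adjusted p = 0.0393).

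Levels between genes were compared per kilobase of exon, as the mean CPM per kilobase. In the glands Apoe was highest at 151.4 ± 102.0 (SD, n = 3), followed by Insig1 at 41.9 ± 9.49, Acat2 at 24.4 ± 9.59 and Hmgcs1 at 23.5 ± 5.08. The neighbours Acat2 and Hmgcs1 did not differ beyond their spread. In the tumours Apoe was again highest at 322.4 ± 166.5 (SD, n = 4), followed by Abca1 at 18.2 ± 8.47 and by Acat2 at 12.8 ± 18.2, with the papillary tumour far above the other 3. Insig1 moved from rank 2 of 29 in the glands to rank 12 in the tumours, at 3.66 ± 0.88. Sc5d moved from rank 6 to rank 15, and Soat1 from rank 23 to rank 5. Tm7sf2 was the lowest in both groups.

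Each tumour type was then set against the glands in a fit of 4 groups. The spindle cell and papillary tumours have no replicate, and in this fit they are assumed to vary like the glands and the adenosquamous pair. In the adenosquamous tumours 5 of 29 genes fell and 1 rose (edgeR), against 3.53% and 3.65% of the 16866 genes tested. Insig1 fell by 3.67 on the log2 scale (SE 0.43, adjusted p = 0.0193) and Sc5d by 2.78 (SE 0.50, adjusted p = 0.0313). Acat2 fell by 2.80 (SE 0.46, adjusted p = 0.0267), from 62.0 ± 24.4 CPM (SD, n = 3) in the glands to 9.01 ± 1.31 CPM (SD, n = 2). Fdft1 fell by 1.52 (SE 0.31, adjusted p = 0.0417), and Nr1h3 changed by -1.81 (SE 0.37, adjusted p = 0.0417). Soat1 rose, with a log2 fold change of 2.34 (SE 0.41, adjusted p = 0.0293), from 16.6 ± 4.69 CPM (SD, n = 3) to 85.9 ± 38.2 CPM (SD, n = 2). Macrophages esterify cholesterol through Soat1. Their markers summed to 709.7 and 2481 CPM in tumours 1a and 1b, with Lyz2 alone at 291.7 and 1793 CPM. Both sums were above the 332.2 CPM of the highest gland. In the spindle cell tumour the macrophage sum was 154.7 CPM, below every gland, with Soat1 at 39.8 CPM, above every gland. In the papillary tumour the sum was 453.8 CPM, above every gland, with Soat1 at 15.3 CPM, within their range. The part of macrophages in the rise of Soat1 was not tested. Without gland 1 there were 4 falls in the adenosquamous tumours, of Acat2, Sc5d, Insig1 and, newly, Nsdhl. Without gland 2 there were 3, of Acat2, Sc5d and Insig1. The calls of Fdft1 and Nr1h3 were lost in both refits. Of all genes 3.23% and 7.53% passed in these refits, in either direction. Without gland 3, tumour 1a or tumour 1b no cholesterol gene passed, and only 30, 73 and 0 genes passed in all. The rise of Soat1 held without gland 2 and lost without any other of these libraries.

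In the spindle cell tumour 1 of 29 genes fell and 0 rose, against 0.545% and 0.907% of all genes. That gene was Nr1h3, with a log2 fold change of -4.27 (SE 0.59, adjusted p = 0.0444 by edgeR). Without gland 1, gland 3, tumour 1a or tumour 1b it did not pass, but almost no gene of all those tested did. Those refits therefore cannot tell whether the fall of Nr1h3 in particular was lost. At an unadjusted p under 0.05 there were 10 cholesterol genes, of which Soat1 and Scap were higher, and DESeq2 called 8 lower and 0 higher. Over all genes, 3368 of 16866 were at such a p and 13.5% passed in DESeq2, in either direction. The log2 fold changes of Insig1 and Sc5d here were -3.18 (SE 0.56) and -2.12 (SE 0.65), with adjusted p = 0.0585 and 0.151.

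In the papillary tumour 1 of 29 genes fell and 0 rose, against 2.96% and 3.79% of all genes. That gene was Insig1, with a log2 fold change of -3.53 (SE 0.57, adjusted p = 0.0302 by edgeR). Without gland 3 neither Insig1 nor any other gene passed, so that refit cannot tell whether its fall in particular was lost. At an unadjusted p under 0.05 there were 9 cholesterol genes, of which Srebf2 and Scap were higher, and DESeq2 called 6 lower and 2 higher. Over all genes 27.3% were at such a p and 21.9% passed in DESeq2, so both counts lay near the background. The median log2 fold change over the 29 genes was 0.10 in the papillary tumour, -0.31 in the adenosquamous pair and -0.57 in the spindle cell tumour. Over all genes these medians were -0.02, 0.02 and -0.01. These 3 comparisons share the same glands, so their values are given side by side only.

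**Figure D5:**
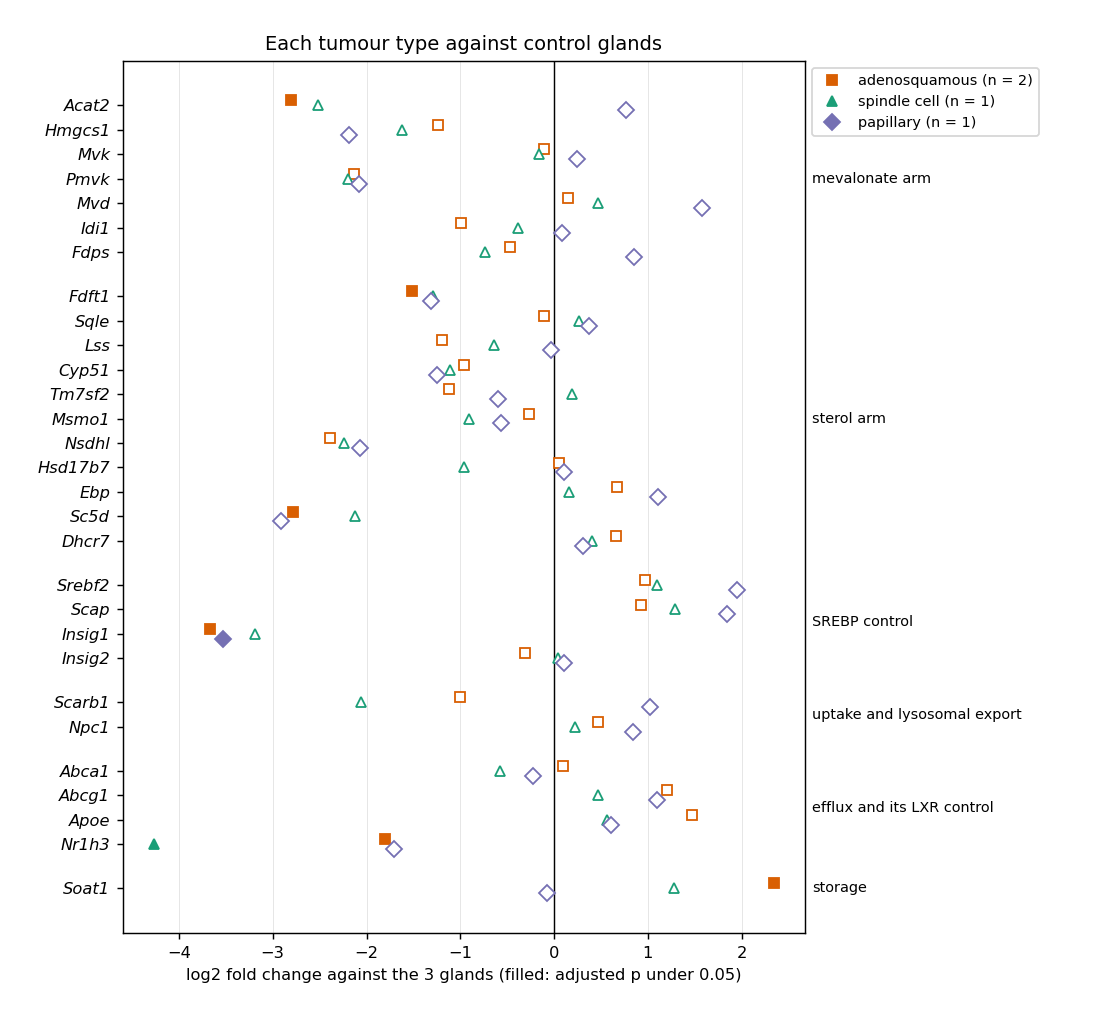
Log2 fold change of each of the 29 genes in each tumour type against the 3 glands, with filled marks for an adjusted p under 0.05 by edgeR. Insig1 lies between -3.67 and -3.18 in all 3 types, whereas Acat2, Scarb1 and Soat1 lie further apart, although none of them passed in the test between types.

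Against the range of the 3 glands, tumour 1a had 10 genes below, 13 within and 6 above, and tumour 1b had 10, 10 and 9. The spindle cell tumour had 12 below, 14 within and 3 above, and the papillary tumour 8, 12 and 9. Of all 14149 genes tested, 30.7% to 33.8% were below and 36.3% to 38.7% above that range, depending on the tumour. When the 3 tumour types were tested against each other, none of the 29 genes passed (edgeR), against 0.125% of all genes. At an unadjusted p under 0.05 there were 4, Acat2 (adjusted p = 0.0645), Nr1h3 (adjusted p = 0.143), Scarb1 (adjusted p = 0.157) and Soat1 (adjusted p = 0.175). Over all genes 18.1% were at such a p, so 4 of 29 is no more than the background. DESeq2 called all 4 of these, against 13.5% of all genes. In limma-voom none of all 16866 genes passed, these 4 included. With 2 of the 3 types held by 1 tumour each, a type cannot be told apart from a single tumour.

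Of 36 further genes of sterol metabolism, listed with their roles by hand, 32 were tested, 1 rose, 2 fell and 29 did not pass in the comparison of tumours with glands. These counts are near the 3.9% higher and 4.57% lower of all genes. The median log2 fold change was 0.10 over these 32 and 0.12 over all genes. Acly, which supplies the acetyl-CoA for the mevalonate arm and for fatty acids, was at 1771, 4025 and 1294 CPM in the glands and at 154.8, 107.3, 98.3 and 296.6 CPM in tumours 1a, 1b, 3 and 4. It was lower in every tumour (log2 fold change -3.85, SE 0.62, adjusted p = 0.0151 by edgeR). Vldlr, a receptor for triglyceride-rich lipoprotein, was at 173.7, 70.4 and 132.7 CPM in the glands and at 25.9, 24.6, 23.1 and 14.3 CPM in the tumours (log2 -2.52, SE 0.37, adjusted p = 0.0127). Stard3, which carries cholesterol at late endosomes, was at 4.24, 5.80 and 5.64 CPM in the glands and at 12.4, 10.6, 14.3 and 10.8 CPM in the tumours (log2 1.19, SE 0.29, adjusted p = 0.0484). Acly no longer passed without gland 3 or tumour 1b, Vldlr without gland 3, and Stard3 without any 1 of the 7 libraries. With gland 2 as the only control none of the 3 passed, and over these losses adjusted p ran from 0.0524 to 0.197 for Acly, 0.0578 to 0.242 for Vldlr and 0.0570 to 0.534 for Stard3.

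By type, these counts are given for the adenosquamous and spindle cell tumours only, and those of the papillary tumour are not reported here. In the adenosquamous tumours 5 of 34 such genes fell and none rose (edgeR), against 3.53% and 3.65% of all genes. At an unadjusted p under 0.05 there were 11 of the 34, against 27.3% of all genes. None passed in the spindle cell tumour, where 8 of the 34 were at an unadjusted p under 0.05, against 3368 of all 16866 genes. DESeq2 called 3 higher and 6 lower in the adenosquamous tumours and 0 higher and 4 lower in the spindle cell tumour, and limma-voom 1 and 5, and 0 and 1. Of all genes, DESeq2 passed 21.0% in the adenosquamous tumours and 13.5% in the spindle cell tumour, in either direction. These shares were 7.62% and 2.23% in limma-voom.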

How the data were processed

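RNA of 3 control glands and 4 tumours was sequenced as unstranded TruSeq v2 libraries, per the labels' protocols. Tools named in the submitters' processing notes are STAR 2.5, RSEM 1.3 and limma, with the build GRCm38, and no annotation release. The deposited column headed TPM does not sum to a constant total, and 2.34% to 6.14% of its values are not whole, so its values were taken to be the authors' expected counts per gene and were rounded. Genes were kept by filterByExpr (minimum count 10, total 15) and tested two-sided with edgeR 4.0.16 in R 4.3.3 after TMM scaling (factors 0.551 to 1.605), with Benjamini-Hochberg adjustment over all genes tested and a threshold of 0.05. One fit had 2 groups (14149 genes) and another had 4 (16866 genes), both tested on simulated data. Each SE was the absolute log2 fold change over the root of its F statistic. CPM used TMM-scaled library sizes, and log2 CPM a prior count of 2. Limits for 0 counts used 3 counts, and exact Poisson intervals cover counting error only. Exon lengths, positions and overlaps came from GENCODE M21 (GRCm38), in which 50376 of the 50600 identifiers were found.

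Groups follow the labels, which give no batch, date or pairing. No libraries of a group were alike within sampling noise. The glands and tumours are called independent in the series' design, but if tumours 1a and 1b came from 1 animal their p-values measure a narrower spread. DESeq2 1.42.0, limma-voom (limma 3.58.1), other scalings and filters, left-out libraries and the mitochondrial genome left out were tried as alternatives. All 29 genes could be named. Of the other sterol genes the rule named those that passed in tumours against glands, and of each marker list at most 3 members. The members and lists were chosen with earlier results of these data known. One of the other sterol genes is not reported here by name.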

Additional observations from a re-analysis of the deposited data

Results flagged for a closer look

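Each of the 29 genes was checked for 1 tumour far from the other 3, by the gap to the nearest tumour divided by the range of the 4 tumours in log2 CPM, against the critical value of Dixon's test for 4 samples. Chance alone puts about 1 in 20 groups past it, and 4 of the 29 genes were past it. The share of all genes past it is not given here, so this count cannot be read as particular to the cholesterol genes. In the papillary tumour, Acat2 was at 6.67 log2 CPM and the nearest tumour at 3.43 (ratio 0.893), and Srebf2 was at 5.50 with the nearest at 4.67 (ratio 0.898). In the spindle cell tumour, Nr1h3 was at 0.27 log2 CPM with the nearest at 2.58 (ratio 0.942), and Hsd17b7 was at 1.95 with the nearest at 2.93 (ratio 0.899). Each of these tumours is the only one of its type, so the type and the single tumour cannot be told apart.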

How the results depend on the processing

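Tumours against glands: of 433 refits of the 29 log2 fold changes, 371 kept their direction and side of the threshold, 27 no longer passed, 11 newly passed and 24 changed sign, all of these in genes that had not passed. Insig1 fell in 14 of 15 settings and Sc5d in 13. With other scalings or the mitochondrial genome left out, the same 6 genes fell as in the report. Genes that rose numbered 3 in DESeq2, and genes that fell numbered 3 with no filter on low counts and 0 with gland 2 as the only control. Leaving out 1 library gave 0 to 1 that rose and 1 to 7 that fell. Of all genes, 24.1% passed in DESeq2, 2.92% with no filter and 0.654% to 9.88% with 1 library left out. The share was 8.47% in the main edgeR fit, each in either direction. Without that filter Mvk was at 0.0, and against gland 2 alone Sqle was at -0.47 and Dhcr7 at -0.03. Leaving out 1 library, the ranges were -0.36 to 0.35 for Mvk, -0.95 to 0.15 for Idi1, -0.59 to 0.22 for Fdps, -0.08 to 0.47 for Sqle, -1.0 to 0.15 for Tm7sf2, -0.28 to 0.09 for Hsd17b7, -0.38 to 0.22 for Insig2, -1.31 to 0.04 for Scarb1 and -0.47 to 0.05 for Abca1.

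Types: in the adenosquamous tumours 8 genes fell in DESeq2, and leaving out 1 library gave 0 to 1 that rose and 0 to 4 that fell. Of all genes 21.0% passed there in DESeq2, against 7.19% in the main edgeR fit. These shares and those below count either direction. In the spindle cell tumour 8 fell in DESeq2, 2 with median-ratio scaling, 2 with upper-quartile scaling, 3 with no filter on low counts, and 0 to 1 leaving out 1 library. Of all genes 13.5% passed there in DESeq2, 1.53% and 1.7% with those scalings and 4.16% with no filter, against 1.45% in the main fit. In limma-voom 1 fell there, Insig1 in place of Nr1h3. In the papillary tumour 2 rose in DESeq2, in limma-voom and with no filter. The genes that fell there numbered 6 in DESeq2, 5 in limma-voom, 2 with either other scaling, 3 with no filter, 3 with a minimum count of 50, and 0 to 2 leaving out 1 library. Of all genes 21.9% passed in the papillary tumour in DESeq2, 7.42% with median-ratio and 6.98% with upper-quartile scaling. The share was 8.11% with no filter and 9.34% with a minimum count of 50, against 6.76% in the main fit. In limma-voom 2359 of 16866 genes passed there, against 1140 in the main fit. In each of these settings the share of all genes was thus also above that of the main fit. Between types 4 genes passed in DESeq2, 2 with no filter, and 0 to 1 leaving out 1 library. Of all genes 13.5% passed between types in DESeq2 and 5.03% with no filter, against 0.125% in the main fit. With the looser letters, 3 promoter windows held a sterol regulatory element in place of 1. The cause of these changes was not tested. Where 1 adenosquamous tumour was left out, the spread came from the glands alone. No paired analysis was possible because the labels give no replicate number that glands and tumours share by design. The common biological coefficient of variation was 0.6 in the fit of tumours against glands and 0.538 in the fit of 4 groups, and gland 1 and tumours 1a, 1b and 3 hold the fewest counts, which limits genes at a few CPM.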
